A study of Mus musculus with 4 samples.

Results

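The genes described here are 10 pluripotency factors of the mouse, looked up by symbol in the annotation of an Affymetrix expression array: Pou5f1, Nanog, Sox2, Utf1, Dppa2, Dppa4, Dppa5a, Zfp42, Tbx3 and Lin28a. All 10 had a probe set that named that gene alone, among 14860 genes with such a probe set. They were looked at in mesoderm derived from embryonic stem (ES) cells, for their level at day 3 of differentiation. The question was also whether that level differed between populations meant to differ by gain or loss of the transcription factor ER71, encoded by Etv2. No undifferentiated ES cells or earlier day were measured, so how much signal had been lost by day 3 is unknown. Cells bearing Flk-1, the VEGF receptor encoded by Kdr, were sorted from 4 populations, with 1 array each: the inducible line iER71 induced with 1 mg/ml doxycycline between day 2 and day 3, iER71 cells given none, Er71-/- cells and wild-type cells. The labels call both iER71 samples wild-type in genotype, and the ES cells had been kept on embryonic fibroblast feeders with LIF before differentiation without it. Neither the construct and promoter of the inducible line nor the deleted part of Er71 is given in the sources used here, and no label says how many clones or cultures lie behind an array.

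The labels of the iER71 arrays contradict each other: the doxycycline-treated one is titled control, and the untreated one is titled ER71 overexpressed. Both are named here by their doxycycline label, and every direction between them turns round if the titles are right. Etv2 itself had a log2 intensity of 10.50 on the doxycycline array against 10.05 on the untreated iER71 array, and of 8.89 on the Er71-/- array against 9.39 on the wild-type array. The probe positions relative to the transgene and the deletion are unknown, so Etv2 is a weak check. Kdr lay between 9.67 and 10.19 on the 4 arrays, Mixl1 of the primitive streak between 8.85 and 10.88, and Mesp1 and Pdgfra of early mesoderm between 5.98 and 8.33 and between 5.30 and 8.64. Median intensities of the arrays were 71.3 to 72.3 on the linear scale. As each population has 1 array, replicate spread is unknown, and the values below carry neither an error nor a test. Each population is a mix of cells, and fewer cells that use a gene cannot be told apart from less of its RNA per cell.

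Pluripotency rests on a small circuit of transcription factors. OCT4 (Pou5f1) and SOX2 bind DNA side by side and, with NANOG, keep ES cells able to form all tissues of the embryo, while UTF1, the DPPA proteins, REX1 (Zfp42), TBX3 and the RNA-binding protein LIN28A act with or downstream of them. The circuit is not switched off at once when cells leave it: in the embryo Oct4 and Nanog RNA persist in the posterior epiblast and primitive streak, whereas Sox2 is retained mainly in future neural tissue.

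A gene was taken as detected if at least 1 array was at or above the median of all values, a log2 intensity of 6.16. Of the 10 members, 8 did, and Dppa2 and Dppa5a did not. At that level 5 members lay at or above the median on every array: Pou5f1, Nanog, Sox2, Tbx3 and Lin28a. On single arrays 8 members reached it with doxycycline and 6 without, and 5 did so both in Er71-/- cells and in wild type. Of all 14860 genes 56.6% and 56.7% reached it on the iER71 arrays with and without doxycycline, and 55.1% and 56.6% on the Er71-/- and wild-type arrays, so the last 3 arrays' counts of members are close to the background. The values came without detection calls, and a level below the median does not show that a gene was silent.

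Pou5f1, the gene for OCT4, had log2 intensities of 9.26 on the doxycycline array and 8.68 on the untreated iER71 array, and of 8.68 on the Er71-/- array and 7.89 on the wild-type array. Wild type was thus the dimmest and the doxycycline array the brightest, 2.58-fold apart. The deposited values of the untreated iER71 and Er71-/- arrays were exactly equal, as happened for 39.6% of probe sets on some pair of arrays. Nanog, the homeobox factor that stabilises the circuit, had another order. It stood at 6.73 with doxycycline and 7.20 without, and at 7.73 in Er71-/- cells and 6.52 in wild type, so that Er71-/- cells were brightest and, as for Pou5f1, wild type dimmest. Sox2, the HMG-box partner of OCT4, was nearly flat. Its log2 intensity was 7.25 with doxycycline and 7.02 on each of the other arrays, with a span of 0.23 over the 4 arrays. The deposited values of Sox2 on the untreated iER71 and wild-type arrays were exactly equal. RefSeq's gene table lists 7 pseudogene copies of Pou5f1 and 2 of Nanog, and whether the probes separate these copies is not given, so both levels are uncertain to that extent. The table also lists 2 of Dppa5a and 1 of Zfp42, and the same limit applies to their levels below.

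Utf1, a chromatin-bound factor typical of undifferentiated ES cells, was above the median on 1 array alone. It had log2 intensities of 7.58 with doxycycline and 5.98 without, and of 5.35 in Er71-/- cells and 5.79 in wild type. Dppa4, whose protein binds DNA through a SAP domain, showed the widest span of the 10, with 3.64 on the log2 scale. It stood at 7.48 with doxycycline and 5.37 without, and at 3.84 in Er71-/- cells and 4.46 in wild type. Here too the doxycycline array was the only one above the median. Dppa2, the neighbour and binding partner of Dppa4, was far below the median throughout, at 3.83 with doxycycline and 2.89 on each of the remaining 3 arrays, whose deposited values were exactly equal. Dppa5a, an RNA-binding protein gene of early embryos, was as dim, at 3.81 with doxycycline and 3.50 without, and at 1.88 in Er71-/- cells and 2.02 in wild type. Dppa2 and Dppa5a each have 1 further probe set that names a second gene, which was not used.

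Zfp42, the gene for the ES cell marker REX1, hovered near the median. Its log2 intensity was 6.56 with doxycycline and 6.26 without, and 5.53 in Er71-/- cells and 5.37 in wild type, so both iER71 arrays lay above the median and the remaining arrays below it. Tbx3, a T-box factor used by ES cells and again by endoderm and heart precursors, ran the other way: 7.05 with doxycycline and 8.54 without, and 8.77 in Er71-/- cells and 8.55 in wild type. Lin28a, whose protein blocks maturation of the let-7 microRNAs, had the same order of arrays. It stood at 8.61 with doxycycline and 9.66 without, and at 9.83 in Er71-/- cells and 9.70 in wild type. For both genes the doxycycline array was the low one and the other arrays lay within 0.22 (Tbx3) and 0.17 (Lin28a) of each other on the log2 scale.

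**Figure D1:**
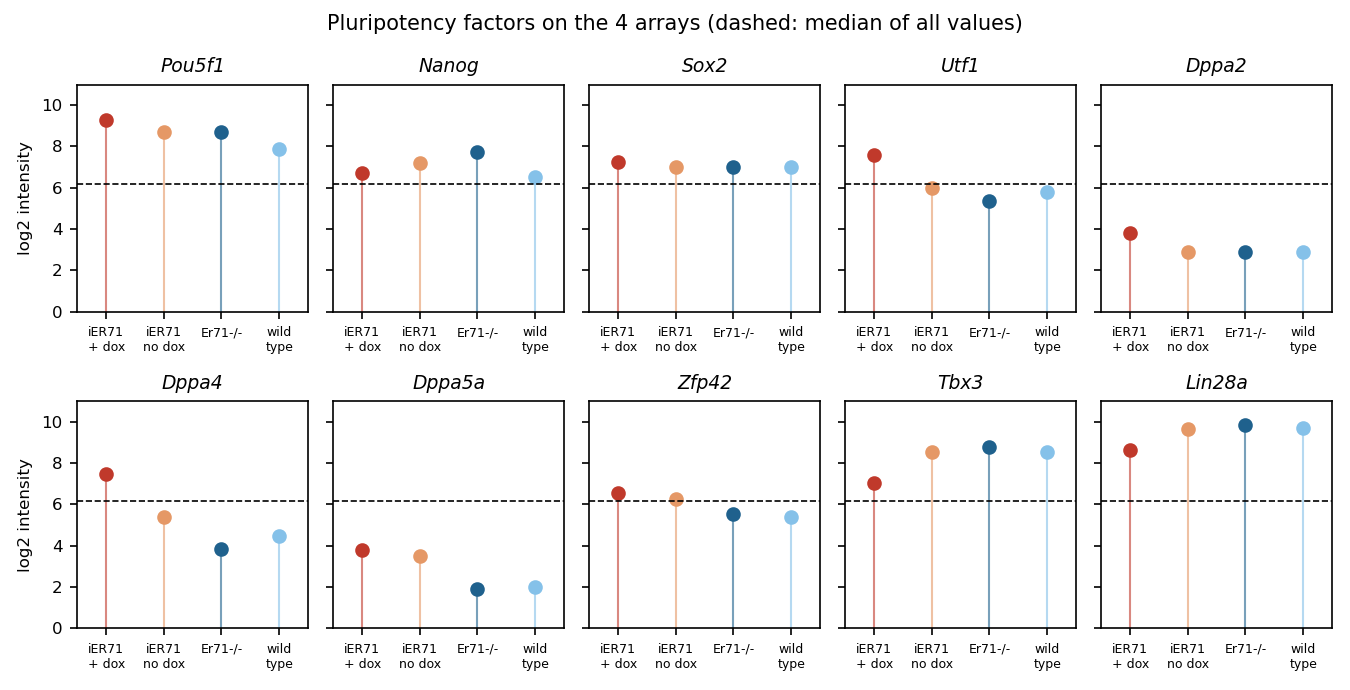
Log2 intensity (vertical axis) of the 10 pluripotency factors on the 4 arrays, 1 point per array; the dashed line is the median of all values, 6.16. Utf1 and Dppa4 rise above the line on the doxycycline array alone, Tbx3 and Lin28a are lowest there, and Dppa2 and Dppa5a stay below the line on every array.

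Across the set, the doxycycline array was the brightest of the 4 for 7 of the 10 members (Pou5f1, Sox2, Utf1, Dppa2, Dppa4, Dppa5a and Zfp42), where 23.8% of all 14860 genes had that array as the brightest. Of these 7, Dppa2 and Dppa5a were below the median on every array, and Sox2 spanned only 0.23. Utf1 and Dppa4 reached the median on the doxycycline array alone. The members were chosen with earlier results of these data known, so nothing is read from this count. The 3 others, Nanog, Tbx3 and Lin28a, were brightest in Er71-/- cells, as were 14.7% of all genes. Wild type was brightest for none of the 10, against 22.7% of all genes, and was strictly dimmest for 3, Pou5f1, Nanog and Zfp42, against 14.6% of all genes. The Er71-/- array was strictly dimmest for 3 others, Utf1, Dppa4 and Dppa5a, against 26.8% of all genes.

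The first comparison asks how these genes differed between iER71 mesoderm with and without induction. Relative to the untreated iER71 array, Dppa4 was 4.32-fold and Utf1 3.02-fold higher on the doxycycline array, and Tbx3 was 2.82-fold and Lin28a 2.07-fold lower. These were the 4 members past 2-fold, a difference of 1 on the log2 scale. Of all 8843 genes detected, 2.41% were higher and 1.23% lower by that size, as context for these counts. Nothing is read from the 2 higher members against that share, since Dppa4 and Utf1 passed the detection level through the doxycycline array alone. They stood there 2.49-fold and 2.66-fold above the median of all values, and their true ratio to a dim array is uncertain. Lin28a fell short of 2-fold, at -0.96, when an offset of 50 was added before the log2. Below 2-fold, the differences (doxycycline minus untreated) were 0.94 for Dppa2, 0.58 for Pou5f1, 0.30 for Dppa5a, 0.29 for Zfp42, 0.23 for Sox2 and -0.47 for Nanog. The median over all 10 was 0.30 with 7 above 0, against a median of 0.00 over all genes, but the members lie on both sides. Over the 6 members whose mean reached the detection level the median was -0.123, of the other sign, and with the offset of 50 it was 0.165 over all 10.

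The second comparison asks what differed with loss of Er71. Nanog was the 1 member past 2-fold, 2.31-fold higher in Er71-/- cells than in wild type, and no member was lower by that size. With the offset of 50 Nanog differed by 0.888, so that no member passed 2-fold. Of all 8843 genes detected, 0.43% were higher and 1.58% lower by that size in Er71-/- cells. Pou5f1 followed with a difference of 0.79 (Er71-/- minus wild type), 1.72-fold. Dppa4 differed by -0.61 and Utf1 by -0.44, with both arrays of the pair below the median for each of them. The remaining differences were 0.21 for Tbx3, 0.15 for Zfp42, 0.13 for Lin28a, 0.00 for Sox2 and Dppa2 and -0.14 for Dppa5a. The members' median was 0.07, against 0.00 for all genes.

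How far wild type itself stood from another ER71-bearing population was read from the untreated iER71 array, which shares the wild-type array with the second comparison and the untreated array with the first. No detected member reached 2-fold there, while 0.441% of the detected genes were higher and 0.554% lower by that size. Nanog was 0.68 and Pou5f1 0.79 higher without doxycycline than in wild type on the log2 scale. For Nanog this is 0.53 smaller than in Er71-/- cells. For Pou5f1 it is the same difference, because the deposited values of the untreated iER71 and Er71-/- arrays were exactly equal. Dppa4 was 0.91 and Zfp42 0.89 higher, and Dppa5a, dim on both arrays, 1.48 higher. Utf1 differed by 0.19, Tbx3 by -0.01, Lin28a by -0.04, and Sox2 and Dppa2 not at all. The low doxycycline values of Tbx3 and Lin28a therefore stood apart from wild type by much the same amount as from the untreated array, at -1.50 and -1.08 (doxycycline minus wild type). By contrast Pou5f1 was 1.37, Zfp42 1.19, Utf1 1.78 and Dppa4 3.02 higher with doxycycline than in wild type, across lines.

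**Figure D2:**
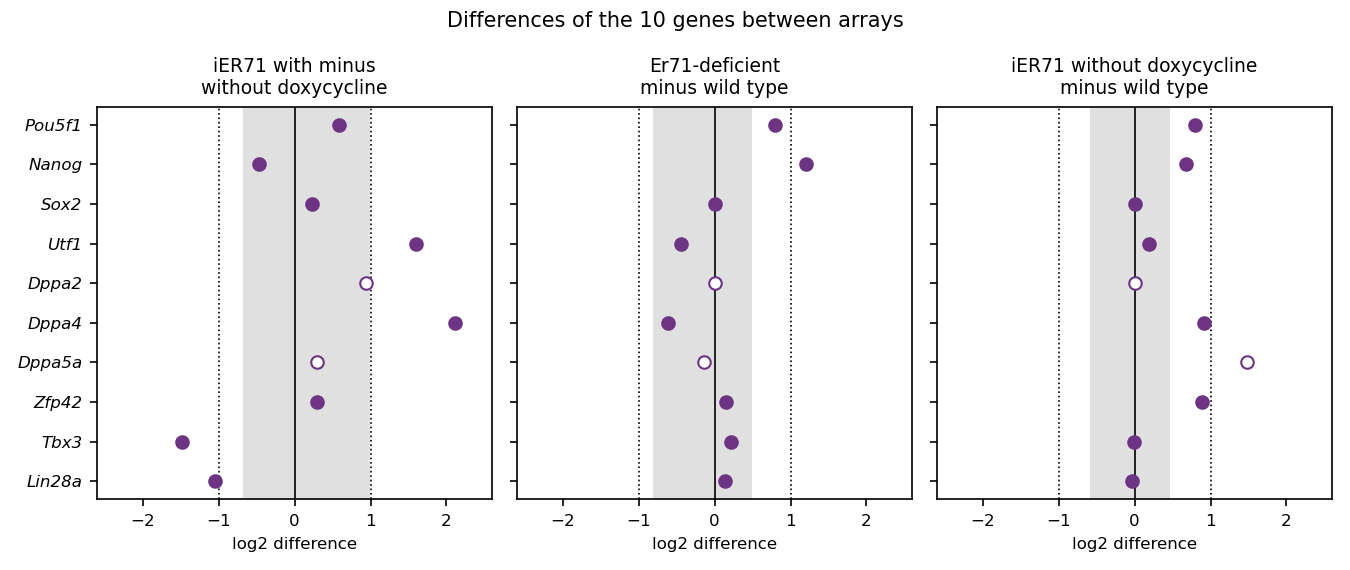
Log2 differences (horizontal axis) of the 10 genes in 3 pairs of arrays; grey bands hold the middle 95% of all detected genes, dotted lines mark 2-fold, and open circles are Dppa2 and Dppa5a, which stayed below the median. Dppa4, Utf1, Tbx3 and Lin28a pass 2-fold with doxycycline and Nanog in Er71-/- cells.

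The pairs of the first and second comparison share no array and can be set side by side. Dppa4 and Utf1 were higher with doxycycline and lower in Er71-/- cells, by 2.11 against -0.61 and 1.60 against -0.44. Both were detected through the doxycycline array alone, and their second differences lie between 2 arrays below the median. Nothing is therefore read from the opposite signs. Tbx3 and Lin28a were lower with doxycycline, at -1.49 and -1.05, and differed by only 0.21 and 0.13 in Er71-/- cells. Pou5f1 was higher in both, at 0.58 and 0.79, and Nanog was lower in the first and higher in the second, at -0.47 and 1.21. No member passed 2-fold in both.

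**Figure D3:**
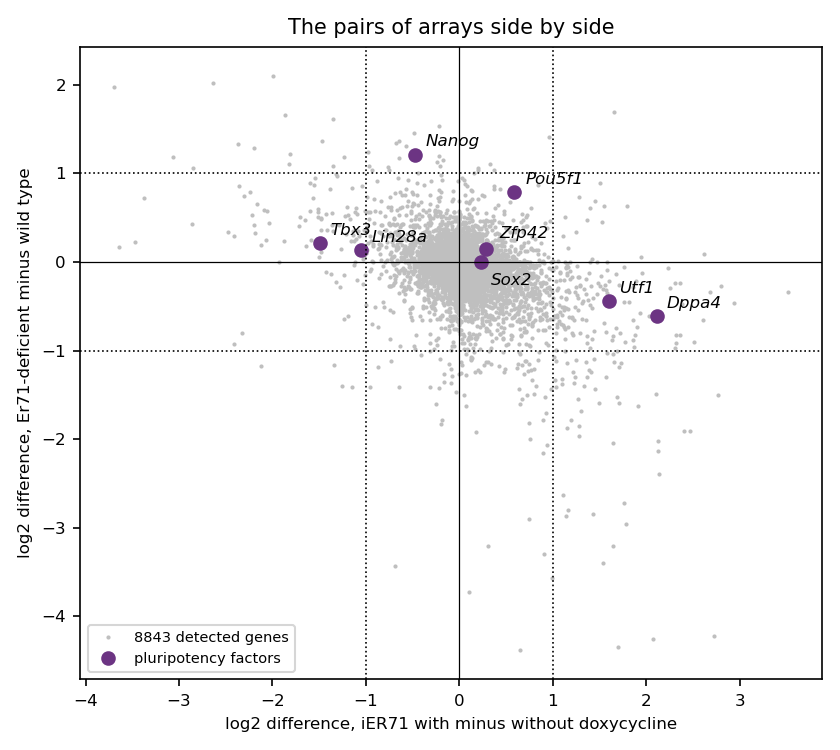
Log2 difference with minus without doxycycline (horizontal axis) against Er71-/- minus wild type (vertical axis) for 8843 detected genes in grey and the 8 detected pluripotency factors in purple; dotted lines mark 2-fold. Dppa4 and Utf1, detected through the doxycycline array alone, lie to the right, Tbx3 and Lin28a to the left, and Nanog at the top.

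RefSeq promoter sequence (build GRCm38.p6) was at hand for 6 members, and Dppa2, Dppa4, Dppa5a and Tbx3 had no entry in the table. The 250 bases before the start are printed for the 3 of these that passed 2-fold in the first or second comparison, Nanog, Utf1 and Lin28a. They are also printed for Pou5f1, whose product binds octamer elements. Nanog lies at chr6:122707239-122707488, plus strand, Utf1 at chr7:139943606-139943855, plus strand, Lin28a at chr4:134018817-134019066, minus strand, and Pou5f1 at chr17:35505782-35506031, plus strand. Of the 2 starts that the table gives for Nanog and for Pou5f1, the upstream one is shown. Capitals mark every match, on either strand, to ATGCAAA (the octamer element read by OCT4), CATTGT (a SOX site), CCGGAA (an ETS site) and GGGCGG (a GC box).
Nanog: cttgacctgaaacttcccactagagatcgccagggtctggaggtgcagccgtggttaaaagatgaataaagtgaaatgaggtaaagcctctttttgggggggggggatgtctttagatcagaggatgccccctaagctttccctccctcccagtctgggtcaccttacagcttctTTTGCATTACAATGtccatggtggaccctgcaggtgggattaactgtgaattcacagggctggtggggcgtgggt
Utf1: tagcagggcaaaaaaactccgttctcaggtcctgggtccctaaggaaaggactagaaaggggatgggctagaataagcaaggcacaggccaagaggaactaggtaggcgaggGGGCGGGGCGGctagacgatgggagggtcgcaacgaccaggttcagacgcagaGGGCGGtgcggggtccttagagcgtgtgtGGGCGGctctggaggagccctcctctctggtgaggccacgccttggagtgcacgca
Lin28a: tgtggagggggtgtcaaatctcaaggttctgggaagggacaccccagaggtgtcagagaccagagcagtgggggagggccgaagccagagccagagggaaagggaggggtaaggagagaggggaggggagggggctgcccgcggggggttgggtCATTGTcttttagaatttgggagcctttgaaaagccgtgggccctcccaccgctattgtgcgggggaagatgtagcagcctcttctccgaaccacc
Pou5f1: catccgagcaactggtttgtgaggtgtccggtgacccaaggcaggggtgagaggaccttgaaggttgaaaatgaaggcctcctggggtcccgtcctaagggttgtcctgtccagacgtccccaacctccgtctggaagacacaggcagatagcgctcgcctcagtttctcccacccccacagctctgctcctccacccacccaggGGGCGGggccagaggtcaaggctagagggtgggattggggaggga
The Nanog window holds an octamer and a SOX site set 1 base apart on the minus strand, 75 to 62 bases before the start, which together spell CATTGTNATGCAAA. That joint spelling was modelled on the known OCT4-SOX2 element of Nanog, and of 32807 promoter windows of the same length 2 (0.0061%) hold it, both of them Nanog's. The octamer alone was in 4.13% of windows, the SOX site in 10.7%, the ETS site in 12% and the GC box in 32.7%. Utf1 had 4 GC boxes, of which 1 pair overlaps, Lin28a 1 SOX site and Pou5f1 1 GC box, and none of the 4 printed windows held the ETS spelling. Of the members not printed, Sox2 had 1 octamer, 1 ETS site and 2 GC boxes, and Zfp42 1 octamer and 2 GC boxes. CpG counts ranged from 3 in the Nanog window and 7 in that of Lin28a to 14 in Utf1 and 27 in Sox2, against a median of 6 over all windows. These matches describe the letters only, and binding was not measured.

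Other genes of the ES cell state were mostly level. From a list of further naive pluripotency genes 25 were measured, 15 reached the detection level and 1 passed 2-fold with doxycycline: Tet2, which oxidises methylcytosine, was 2.06-fold higher than on the untreated array. Klf2, Klf4 and Klf5, the Kruppel-like factors of naive ES cells, differed by 0.01, -0.04 and -0.05, and Fgf4, an OCT4 and SOX2 target, by -0.07. Between Er71-/- and wild type none of the 15 passed 2-fold. Cdh1, the epithelial cadherin of ES cells and epiblast, was level between the iER71 arrays (0.14) and was 2.56-fold higher on the untreated one than in wild type, and Epcam was 2.17-fold higher with doxycycline than in wild type. Of 8 measured markers of undifferentiated ES cells outside the 10 members, Klf2, Klf4, Klf5 and Fgf4 lay above the median on every array, and Esrrb, Nr0b1, Tfcp2l1 and Tcl1 below it on every array. The summed intensity of these 8 was 777 with doxycycline and 785 without, and 749 in Er71-/- cells and 757 in wild type. These sums lie close together and rest mostly on the 4 markers above the median. Whether ES cells were left in any population was not tested.

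Of 12 primed epiblast genes, all detected, 2 were at least 2-fold lower with doxycycline and none higher. Tdgf1, the NODAL co-receptor also known as Cripto, was 4.93-fold lower, with 10.07 with doxycycline and 12.37 without, and 12.76 in Er71-/- cells and 12.01 in wild type. Lef1, a nuclear effector of WNT signals, was 2.13-fold lower. Otx2 and Fgf5 were 1.84-fold and 1.62-fold lower with doxycycline and 1.88-fold and 1.71-fold higher in Er71-/- cells than in wild type, short of 2-fold. Sall4, which binds with OCT4, was at 11.50 with doxycycline and 12.13 without, and at 12.49 in Er71-/- cells and 11.89 in wild type, the order of arrays of Nanog but for the place of wild type. None of 21 cofactor and chromatin genes, 8 genes of the LIN28 and let-7 pathway and 11 LIF and Id genes passed 2-fold in either comparison. Beside Lin28a these include Hmga2, a let-7 target, at -0.50 with doxycycline and 0.64 in Er71-/- cells, and Mycn at -0.38 and 0.10.

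Germ cell genes were looked at because primordial germ cells also use Pou5f1, Nanog and Dppa genes. Of 12 measured, 5 were detected and 2 of these passed 2-fold, being higher with doxycycline: Sycp3 of the meiotic chromosome axis, 3.46-fold, and the RNA helicase gene Ddx4, 2.84-fold. Both were above the median on the doxycycline array alone, as Utf1 and Dppa4 were. Of the 7 measured germ cell markers, Tfap2c, Dppa3, Dnd1 and Dazl stayed below the median on every array, whereas Prdm1 (6.43 to 6.88) and Nanos3 (6.90 to 7.10) lay above it on every array. The 7 summed to an intensity of 520 with doxycycline and 417 without, and of 389 in Er71-/- cells and 370 in wild type. Most of the higher sum with doxycycline came from Ddx4 alone, at 7.22 with and 5.71 without. Of the others, Dppa3, Nanos3 and Dazl were slightly higher with doxycycline than without, and Prdm1, Tfap2c and Dnd1 lower.

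Markers of mesoderm and endothelium also differed in the first comparison, where 7 members lay above 0 and 3 below. Of 16 detected streak and mesoderm genes, 7 were at least 2-fold lower with doxycycline and none higher, for a median of -0.65. Lhx1, a streak homeobox gene, was 6.21-fold and Mixl1 4.09-fold lower. Of 13 endothelial genes, 11 were at least 2-fold higher, for a median of 1.57. The summed intensity of 6 endothelial markers was 5298 with doxycycline and 1168 without, and 217 in Er71-/- cells and 1686 in wild type. The part of these shifts in the members' differences was not tested. The 5 measured mesoderm markers, Kdr and Etv2 included, summed to 3178 with doxycycline and 4317 without, and to 3507 in Er71-/- cells and 3014 in wild type. Etv2, the gene meant to be altered, weighs heavily in these sums, most with doxycycline, where its log2 intensity was 10.50. Of the others, Pdgfra, Mesp1 and Mixl1 were lowest on the doxycycline array, and Kdr was highest there. In Er71-/- cells 3 streak and mesoderm genes were at least 2-fold higher than in wild type, with a median of 0.25, and 8 endothelial genes at least 2-fold lower. From the T-box family 8 genes were detected, and Eomes and Tbx20 were lower with doxycycline, 3.04-fold and 2.44-fold, as Tbx3 was. Sox1 of the neural plate had exactly equal deposited values on the 4 arrays, a log2 intensity of 7.10, and the cause of such equal values is not given. Of 8 neuroectoderm genes Fabp7 alone passed 2-fold, being 2.16-fold lower with doxycycline. The endoderm list had 9 detected genes, 2 of them higher and 3 lower by 2-fold or more with doxycycline. Among the lower was Cxcr4, 4.18-fold, and among the higher Dab2, 2.63-fold. No feeder gene of 3 detected passed 2-fold in these comparisons, and Col3a1, Dcn, Lum, Postn and Fap stayed below the median on every array.

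**Figure D4:**
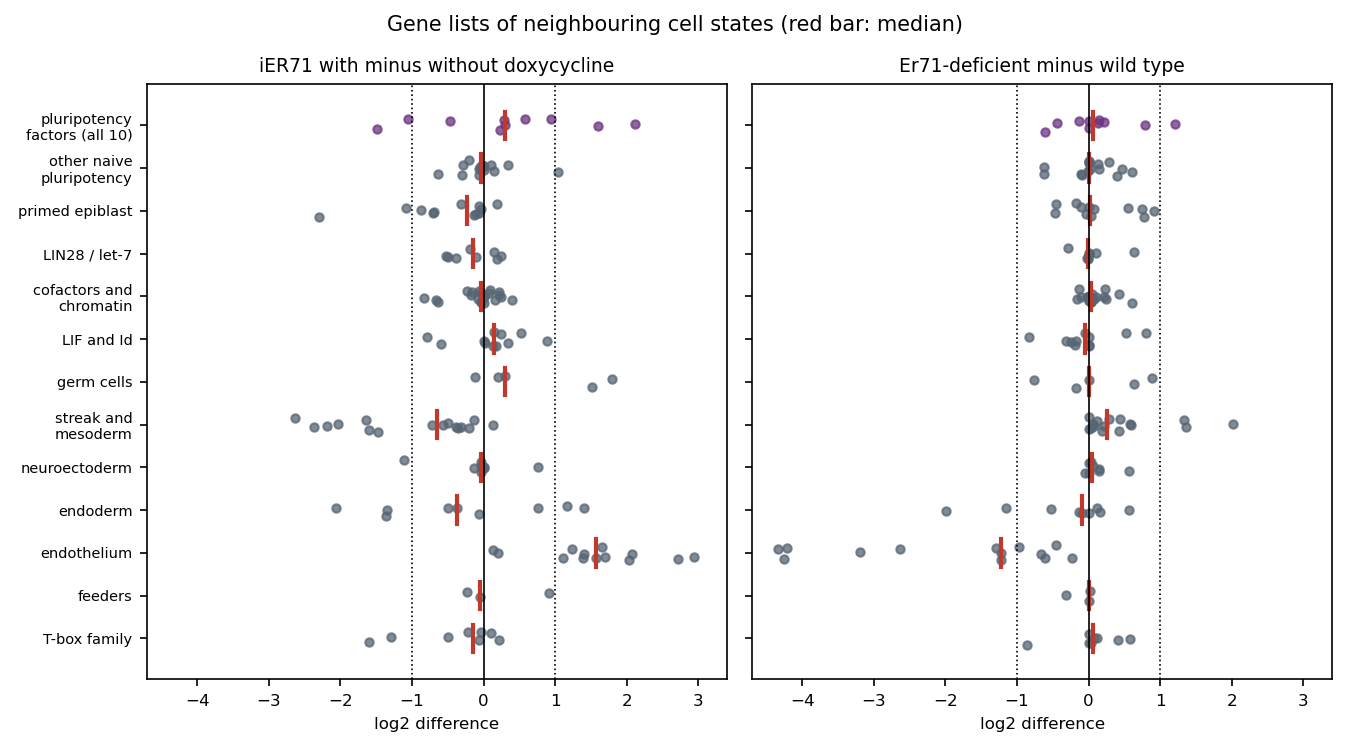
Log2 differences (horizontal axis) with minus without doxycycline (left) and Er71-/- minus wild type (right) for all 10 pluripotency factors in purple and the detected genes of each list in grey, 1 point per gene with the list median as a red bar. The pluripotency factors spread to both sides of 0 with doxycycline, while streak genes lie to the left and endothelial genes to the right.

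For the 7 detected members that spanned at least 1 on the log2 scale, the genes with the most similar profile over the 4 arrays were taken from 8657 detected genes, by the root-mean-square difference of mean-centred log2 values. Nearest to Pou5f1 were Stmn2 (0.025), Gstm7 (0.054) and Cyp2j6 (0.111), and nearest to Nanog Rhpn2 (0.081), Socs2 (0.085) and Anpep (0.127). Utf1 lay near Bcl6b (0.064), Gab1 (0.071) and Elovl7 (0.087). Dppa4 had no close match, the nearest being Aim2 (0.264), Tlr3 (0.285) and Ebf1 (0.331). Tbx3 was nearest to Ptprj (0.027), Pcolce2 (0.059) and Ptpn13 (0.116), Lin28a to Fbln1 (0.036), Plxna4 (0.053) and Tnfrsf19 (0.058), and Zfp42 to Glo1 (0.101), Gstk1 (0.123) and Frg1 (0.125). No member was among the nearest of another. With 4 arrays such a likeness is easily met among so many genes and is a description only.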

How the data were processed

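RNA of Flk-1-positive cells sorted at day 3 was measured on 4 Affymetrix arrays, 1 per group; per the labels' protocols, it was amplified from 500 pg to 50 ng of total RNA. The deposited values are linear intensities of 23332 probe sets, which the authors had summarised and normalized; RMA, Affymetrix Expression Console and mm8 are listed, without version or order, per the submitters' processing notes. Log2 was taken of these deposited intensities with no offset. Names came from the platform annotation: 14996 probe sets had 1 symbol, 1019 several and 7317 none. The brightest probe set stood for a gene, and each member had 1. The detection level was the median of all values (intensity 71.6). Genes were called by size alone, at 2-fold; single arrays allow no test or error, and the number of arrays limits the precision. The members and gene lists were chosen with earlier results of these data known. Named were all members, Etv2 and Kdr, for each list up to 4 of its largest differences (not all are printed) and, for members spanning 1 on the log2 scale, the 3 nearest profiles; predicted genes and olfactory or vomeronasal receptors were left out. Other genes named, such as Klf2, Sall4, Hmga2, Sox1, Otx2, Fgf5, Mycn, Epcam and genes that stayed dim, were chosen after their values were seen. Alternatives were the filter, the normalization (limma 3.58.1), an offset of 50, the probe set rule, the fold and the level.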

Additional observations from a re-analysis of the deposited data

How the results depend on the processing

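No group has a replicate, so none could be left out. No paired analysis was possible because no result comes from a test. Under the alternatives 264 differences of single members were compared. With no filter (40), the stricter filter (24) and the mean of probe sets (40) they could not move. A filter leaves the values unchanged, and each member had 1 probe set. Of all 264, 258 kept their side of 2-fold. The 6 that did not all lost it with an offset of 50 on the linear scale: Lin28a with minus without doxycycline (-0.96), Nanog in Er71-/- cells minus wild type (0.888), and, with doxycycline minus wild type, a comparison added after seeing the data, Zfp42 (0.657) and Lin28a (-0.996). Dppa5a, below the detection level, lost it as well, at 0.182 for untreated iER71 minus wild type and 0.243 with doxycycline minus wild type. With that offset 1 member was at least 2-fold lower with doxycycline than without, 0 were higher in Er71-/- cells than in wild type, and the members' median was 0.165 with minus without doxycycline and 0.142 for untreated iER71 minus wild type. The offset shrinks dim genes by construction. The stricter filter left 6 members, with 1 at least 2-fold higher with doxycycline, and medians of -0.123 with minus without doxycycline, 0.173 in Er71-/- cells minus wild type and 0.094 for untreated iER71 minus wild type. With no filter 1 member, Dppa5a, was at least 2-fold higher on the untreated iER71 array than in wild type. At 1.5-fold, 2 members were higher and 1 lower in Er71-/- cells than in wild type, and 4 higher on the untreated iER71 array than in wild type. The share of all detected genes past 1.5-fold was not taken, so nothing is read from these counts. Naming the iER71 arrays by their titles turns the members' median to -0.297. Median centring, quantile normalization and cyclic loess moved no call of a member. With the 60th percentile of all values as the level, 4 members instead of 5 reached it on every array. Levels near the median limit the folds of Utf1, Dppa4, Zfp42 and the dimmer Dppa genes. They also limit the fold of Nanog against wild type, where it stood at 6.52.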

Other observations

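The genes that flank the members on the chromosome, 2 protein-coding genes on each side in RefSeq's gene order, were looked up after the values were seen. Apart from Dppa4 and Dppa2, members that flank each other, there were 36 such neighbours, of which 22 were measured and 14 detected. By size, with no test, 0 of the 14 passed 2-fold with doxycycline against without, or in Er71-/- cells against wild type. Dppa3 and Gdf3, the pluripotency genes beside Nanog, stayed below the median on every array, at log2 intensities of 5.37 and 5.03 with doxycycline and 5.10 and 4.90 without, and of 5.25 and 4.90 in Er71-/- cells and 5.01 and 4.55 in wild type. Slc2a3, the glucose transporter gene on Nanog's other side, had another order: it was at 8.75 with doxycycline and 8.95 without, and at 8.89 in Er71-/- cells and 9.51 in wild type, so it was brightest in wild type, where Nanog was dimmest, and lower with doxycycline than without, as Nanog was. Tbx5, the heart and limb factor next to Tbx3, was below the median throughout, at 4.05 with doxycycline and 5.02 without, and at 5.17 in Er71-/- cells and 5.04 in wild type, so its order of arrays is that of Tbx3. Morc1, a germ line gene beside Dppa2, was dim as well, at 4.77 with doxycycline and 4.44 without, and at 4.32 in Er71-/- cells and 4.44 in wild type.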
